A study of Mus musculus with 7 samples.

Results

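The BCL2 family sets whether a cell keeps its mitochondria intact or releases cytochrome c and dies, and 10 of its genes were followed here in type 2 innate lymphoid cells (ILC2s) of the mouse heart. The 10 genes were chosen by symbol from the 55335 gene identifiers of the deposited tables, and each matched exactly 1 identifier. They were the antiapoptotic genes Bcl2, Bcl2l1 (BCL-XL), Mcl1, Bcl2a1b and Bcl2a1d (2 copies of A1), the pore-forming effectors Bax and Bak1, and the BH3-only genes Bcl2l11 (BIM), Pmaip1 (NOXA) and Bbc3 (PUMA). RNA came from ILC2s sorted by flow cytometry as CD45+, lineage-negative, ST2+ cells. The 3 naive libraries were made from naive hearts, whose mouse strain the labels do not give. The 4 allograft libraries were made from BALB/c hearts taken 7 days after transplantation into C57BL/6 (B6) recipients, a combination that rejects acutely. Each library pooled cells of 4 to 7 hearts, so libraries and not animals are the replicates, and the labels do not separate ILC2s of the donor from those of the recipient. The comparison asked how transcripts of graft-infiltrating ILC2s differ from those of ILC2s in the naive heart.

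In this family the antiapoptotic proteins hold BAX and BAK in check, and the BH3-only proteins bind the antiapoptotic proteins and free or activate the effectors. BIM binds all antiapoptotic members, PUMA likewise, and NOXA prefers MCL1 and A1. Lymphocytes that live on interleukin 7 or interleukin 2 maintain BCL2 and MCL1 through JAK and STAT5, and A1 is a target of NF-kappaB in activated leukocytes.

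Total counts were 43591167 to 53044907 in naive and 29107326 to 44023726 in allograft libraries, and levels are given as CPM, counts scaled to that total. The library labelled naive replicate 2 stood apart. The 12 ILC2 defining genes, among them Il1rl1 (ST2) and Gata3, summed to 199 CPM in it, against 6312 and 8293 CPM in naive replicates 1 and 3 and 7074 to 7666 CPM in the allografts. Kidney tubule genes summed to 10046 CPM in naive replicate 2 and to at most 274 CPM in any other library, and its mitochondrial share of counts was 26.5%, against 2.04% to 3.11% elsewhere. The other naive libraries also differed from the allografts in quality. Naive replicates 1 and 3 had 15820 and 13864 genes detected, against 19235 to 21354 in the allografts, and the 3 naive libraries had voom quality weights of 0.428, 0.247 and 0.186, against 1.66 to 4.27. Log2 CPM of naive replicates 1 and 3 correlated at r = 0.684 across genes, and those of allograft pairs at 0.875 to 0.922. Markers of 6 other cell types (T, B, dendritic and NK cells, neutrophils and eosinophils) were higher in sum in every allograft than in every naive library. Not all genes followed their sum. Naive replicate 3 lay above every allograft for Cd3d (32.5 against 3.57 to 8.64 CPM), Cd4 (11.6 against at most 0.721 CPM) and Xcr1 (30.9 against 13.5 to 25.4 CPM). It also did so for Ncr1 (28.8 against 11.4 to 26.8 CPM) and Ear2 (17.8 against 2.81 to 14.3 CPM), and naive replicate 1 for Cd79b (117 against 34.6 to 47.7 CPM). The T cell sum of the allografts was carried by Trbc2, Cd3g and Lck. Neutrophil genes summed to 4.03 to 13.9 CPM in naive and 77.5 to 125 CPM in allograft libraries. The allograft sum was carried by Retnlg (37.7 to 62.0 CPM), S100a8 (23.2 to 45.8 CPM) and S100a9 (9.26 to 16.2 CPM). Csf3r, Cxcr2 and Ly6g, 3 of the 8 genes, had 0 counts in all naive libraries and at most 0.309, 2.45 and 2.86 CPM in the allografts, and Elane had 0 counts in all allografts. Dendritic cell genes summed to 11.2 to 31.8 CPM in naive and 78.2 to 99.1 CPM in allograft libraries, with 1 of 6 (Itgax) at 0 in all naive libraries. Their part in the results was not tested. In such bulk samples fewer cells of a type and less RNA per cell cannot be told apart.

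**Figure D1:**
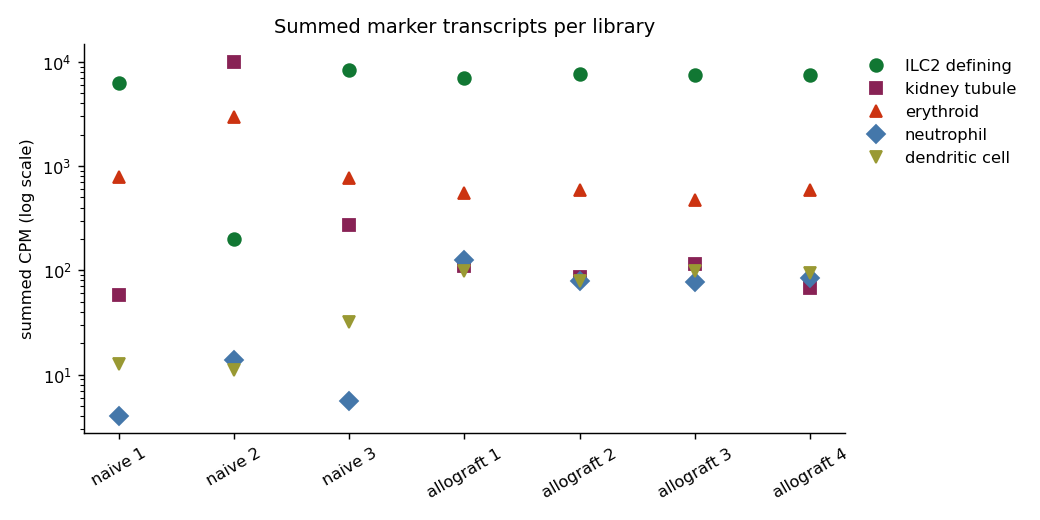
Summed CPM (log scale) of marker genes of ILC2s, kidney tubule, erythroid cells, neutrophils and dendritic cells in each of the 7 libraries, 1 point per list and library. Naive replicate 2 holds 199 CPM of ILC2 genes and 10046 CPM of kidney tubule genes, the reverse of the order in the other 6 libraries.

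None of the 10 genes differed between allograft and naive ILC2s at an adjusted p under 0.05 (edgeR quasi-likelihood test, adjusted over 17015 genes), where 0.0353% of all tested genes passed (0.0294% higher and 0.00588% lower in allografts). All 10 passed the filter on low counts. At an unadjusted p under 0.05 only Pmaip1 passed, on the higher side, against 10.3% of all genes (6.41% higher and 3.86% lower). By DESeq2, which gave a p for 7 of the 10, the number was also 0 after adjustment, against 6.51% of 18850 genes with an adjusted p, and 1 (Pmaip1) before, against 13.3% of 24028 genes. Fitted log2 fold changes were above 0 for 9 of 10 members, all but Mcl1, against 49.4% of all genes. Their median was 1.14, against -0.014 for all genes tested. Every allograft library lay above every naive library for 2 members, Bak1 and Bbc3, while 12.5% of all genes did so, and no member lay below throughout (2.15% of all genes). Without naive replicate 2 again none passed (3.1% of 18037 genes did, 3% higher and 0.0998% lower), 2 had an unadjusted p under 0.05 (Bcl2l1 and Bbc3, both higher, against 20.2%, of which 15.6% higher and 4.67% lower), and 3 lay wholly above the remaining naive libraries (Bcl2l1, Bak1 and Bbc3, against 21%) and none wholly below (7.15%). Fold changes above 0 then numbered 8 of 10, against 58.7% of all genes. The median of the members was then 0.84 and that of all genes 0.23.

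**Figure D2:**
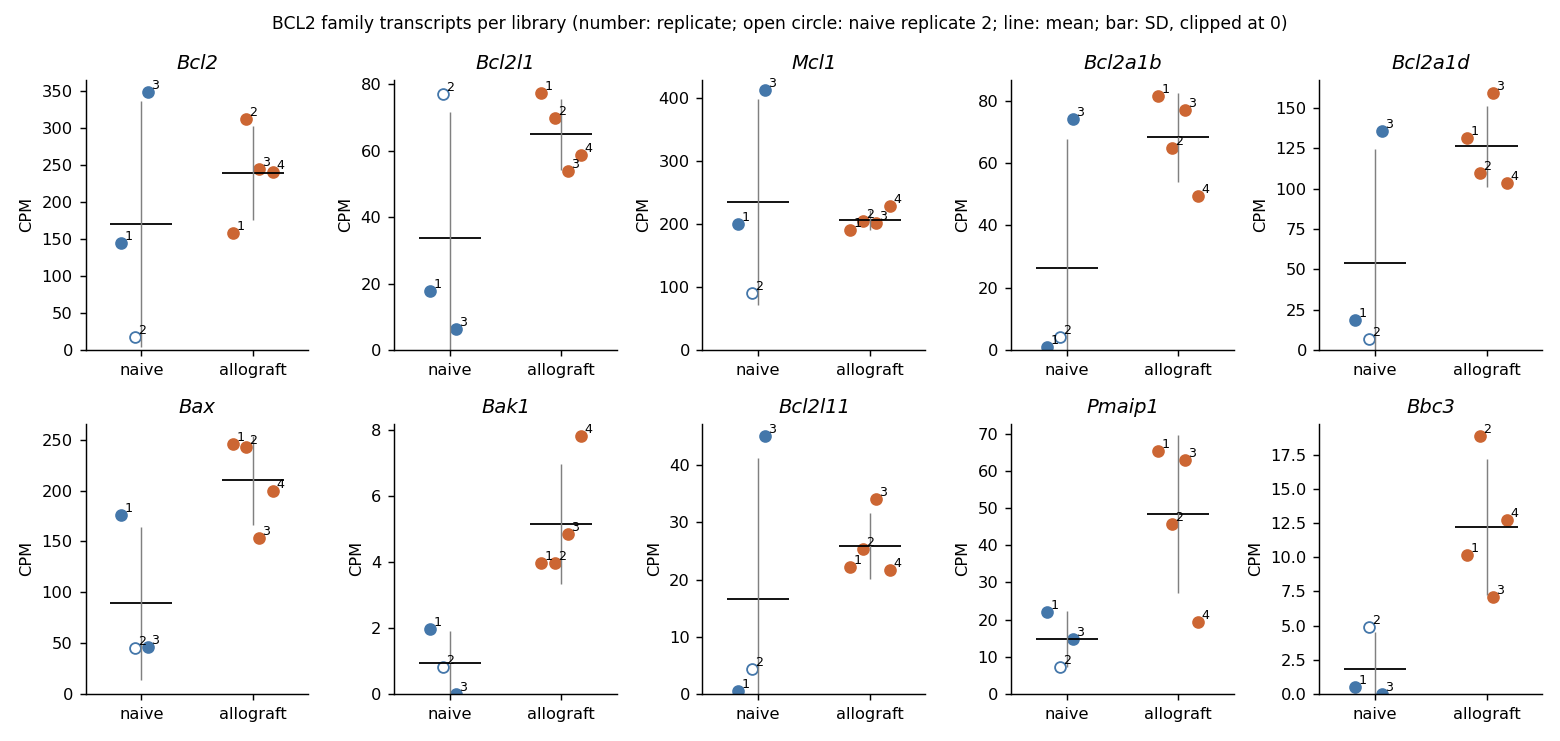
CPM of the 10 genes in each library on linear axes from 0. Points carry the replicate number, the open circle is naive replicate 2, lines are means and bars SD (n = 3 naive, n = 4 allograft, bars stopped at 0). For Mcl1 the naive points run from 90.4 to 412 CPM and the allograft points from 191 to 228 CPM, and for Bak1 and Bbc3 every allograft point lies above every naive point.

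Mcl1 (ENSMUSG00000038612, chromosome 3, 95658788 to 95663176, GRCm38), which protects lymphocytes through a short-lived protein, was the steadiest member in the grafts. It had 201, 90.4 and 412 CPM across naive replicates 1, 2 and 3, and 191, 205, 202 and 228 CPM across allograft replicates 1 to 4. The allograft values lay inside the naive range, close to that of naive replicate 1. Their coefficient of variation was 7.55%, against a median of 16.8% over 4939 well-expressed genes. Means were 234 ± 163 CPM for naive (SD, n = 3) against 207 ± 15.6 CPM for allograft libraries (SD, n = 4). Its log2 fold change was -0.30 (SE 0.42, 95% interval -1.28 to 0.68, adjusted p = 0.895). Leaving out naive replicate 2 gave -0.63 (95% interval -1.38 to 0.12), and leaving out replicate 3, the highest library, gave 0.32.

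Bcl2 (ENSMUSG00000057329, chromosome 1, 106538178 to 106714274), the survival protein that ILC2s share with other interleukin 7 dependent lymphocytes, was abundant in all libraries but naive replicate 2. Its levels were 145, 18.3 and 348 CPM across naive replicates 1, 2 and 3, and 159, 313, 245 and 241 CPM across allograft replicates 1 to 4. The 2 naive libraries with ILC2 genes lay on either side of all 4 allografts. The means of 170.4 ± 166 CPM for naive (SD, n = 3) against 239 ± 63.1 CPM for allograft libraries (SD, n = 4) differed by less than the naive spread. Bcl2 had a log2 fold change of 0.42 (SE 0.74, 95% interval -1.30 to 2.15, adjusted p = 0.928). Leaving out naive replicate 2 gave -0.11 (95% interval -1.12 to 0.91), leaving out replicate 1 gave 0.29 and leaving out replicate 3 gave 1.49. Exons of Bcl2 overlap the antisense gene D630008O14Rik over 558 of 9157 bases, with up to 183 counts of the latter in a library.

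The genes whose log2 CPM followed that of Bcl2 most closely over the 7 libraries, among 4938 candidates, were A630081D01Rik (Pearson's r = 0.996), Aebp2 (0.994), Gm43430 (0.994), Nfkb1 (0.993) and Rel (0.993). Nfkb1 and Rel encode NF-kappaB subunits. Over the 6 libraries without naive replicate 2 these correlations were at least 0.954. The points share library and depth, and the values describe these libraries only.

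Bcl2l1 (ENSMUSG00000007659, chromosome 2, 152780668 to 152831728), whose main product BCL-XL is induced in activated lymphocytes and is strongly expressed in erythroid cells, gave a fold change that depended on naive replicate 2. Naive replicates 1 and 3 had 17.8 and 6.45 CPM, whereas naive replicate 2 had 76.9 CPM. Allograft replicates 1 to 4 had 77.4, 69.8, 53.7 and 58.7 CPM, so that all 4 lay above naive replicates 1 and 3 and around naive replicate 2. Mean levels were 33.7 ± 37.8 CPM for naive (SD, n = 3) against 64.9 ± 10.7 CPM for allograft libraries (SD, n = 4). With all libraries the log2 fold change was 0.48 (SE 0.86, adjusted p = 0.930). Without naive replicate 2 it was 2.39 (SE 0.49, 95% interval 1.19 to 3.58, unadjusted p = 0.00243, adjusted p = 0.0587). With replicate 3 left out instead it was -0.0050, and with replicate 1 left out 0.12. In naive replicate 2 erythroid genes summed to 2937 CPM, against 776 and 786 CPM in the other naive libraries and 468 to 595 CPM in the allografts. The part of erythroid and kidney transcripts in its Bcl2l1 value was not tested.

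A1 is encoded in the mouse by several copies on chromosome 9, and the copies are nearly identical, so counts for a single copy are uncertain. Bcl2a1b lies at 89199209 to 89207827, Bcl2a1d at 88723285 to 88731914 on the opposite strand, and a further copy, Bcl2a1a, at 88956900 to 88962419 (GRCm38, the build mm10 that the submitters' processing notes name). Over the 519 coding bases Bcl2a1b and Bcl2a1d differed at 6 positions (98.8% identity), Bcl2a1a and Bcl2a1d at 7 and Bcl2a1a and Bcl2a1b at 11. Of the 12 positions that vary among the 3 copies, 7 lie in the first 100 coding bases, counted from the A of the start codon. These bases are shown to make plain how few letters tell the copies apart, with the variable positions in capitals (GENCODE M21 transcripts):
Bcl2a1a: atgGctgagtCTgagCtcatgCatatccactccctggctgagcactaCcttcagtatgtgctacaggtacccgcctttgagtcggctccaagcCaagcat
Bcl2a1b: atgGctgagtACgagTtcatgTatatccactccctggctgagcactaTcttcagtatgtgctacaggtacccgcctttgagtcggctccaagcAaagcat
Bcl2a1d: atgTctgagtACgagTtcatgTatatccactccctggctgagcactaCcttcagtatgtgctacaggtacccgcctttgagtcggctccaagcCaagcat

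Of all 100-base windows of the Bcl2a1d transcript, 54.7% occurred unchanged in another copy, as did 31.1% of those of Bcl2a1b and 43.5% of those of Bcl2a1a. The read length and the treatment of reads that fit several places are not given in the sources used here. Bcl2a1b also shares 401 of its 817 exonic bases with Gm29094 on the same strand, a model with 15 to 118 counts per library.

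Bcl2a1d had 18.8, 6.81 and 135 CPM across naive replicates 1, 2 and 3, and 132, 109.8, 159 and 104 CPM across allograft replicates 1 to 4. Bcl2a1b had 0.886, 4.26 and 74.1 CPM across the naive group, against 81.5, 64.8, 77.0 and 49.4 CPM in the allografts. In both genes naive replicate 3 lay within the allograft range and the other naive libraries far below it. Mean Bcl2a1d was 53.7 ± 71.1 CPM for naive (SD, n = 3) against 126 ± 25.3 CPM for allograft libraries (SD, n = 4). Mean Bcl2a1b was 26.4 ± 41.3 CPM for naive (SD, n = 3) against 68.2 ± 14.4 CPM for allograft libraries (SD, n = 4). The log2 fold change was 1.15 for Bcl2a1d (SE 0.86, adjusted p = 0.754) and 1.27 for Bcl2a1b (SE 1.21, adjusted p = 0.820). Leaving out naive replicate 3 gave 3.14 (SE 0.42, adjusted p = 0.0852) for Bcl2a1d and 4.26 (SE 0.89, adjusted p = 0.142) for Bcl2a1b. Leaving out replicate 2 gave 0.64 and 0.79, and leaving out replicate 1 gave 0.73 and 0.70.

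Because the copies cannot be separated with certainty, the counts of Bcl2a1a, Bcl2a1b, Bcl2a1c and Bcl2a1d were also summed. The sum was 22.3, 11.1 and 228 CPM across naive replicates 1, 2 and 3, and 251, 204, 271 and 183 CPM across allograft replicates 1 to 4. Naive replicates 1 and 3 thus differed far more from each other in A1 transcripts than any pair of allografts did. Their ILC2 genes were alike in sum but not singly, with 818 and 216 CPM of Klrg1 and 1025 and 2993 CPM of Rora. The sum averaged 87.2 ± 122 CPM for naive (SD, n = 3) against 227 ± 40.8 CPM for allograft libraries (SD, n = 4). Allograft over naive, the sum had a log2 fold change of 1.3 (SE 0.92, 95% interval -0.84 to 3.44, adjusted p = 0.739). Leaving out replicate 2 gave 0.79, leaving out replicate 1 gave 0.83 and leaving out replicate 3 gave 3.57 (SE 0.36, adjusted p = 0.0586).

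Neutrophils and dendritic cells also express A1, and their marker sums were higher in the allografts, as given above. In naive replicate 3, which had 228 CPM of A1, neutrophil genes summed to 5.597 CPM and dendritic cell genes to 31.8 CPM, both below every allograft library. Xcr1 made up 30.9 CPM of that dendritic cell sum and by itself lay above the allografts (13.5 to 25.4 CPM). Naive replicate 3 also had the highest macrophage and monocyte sum (466 CPM, against 2.49 CPM in naive replicate 1 and 158 to 245 CPM in the allografts). Lyz2 made up 432 CPM of it, and Adgre1, C1qa, Cd68, Itgam and Ly6c2 had 0 counts there. Its mast cell and basophil sum was the highest as well (728 CPM, against 294 to 323 CPM in the allografts), with 424 CPM from Kit. Naive replicate 1, with 22.3 CPM of A1, had a mast cell and basophil sum of 435 CPM, also above every allograft. Macrophages, monocytes, mast cells and basophils can also express A1. The part of any of these cells in the A1 values was not tested.

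**Figure D3:**
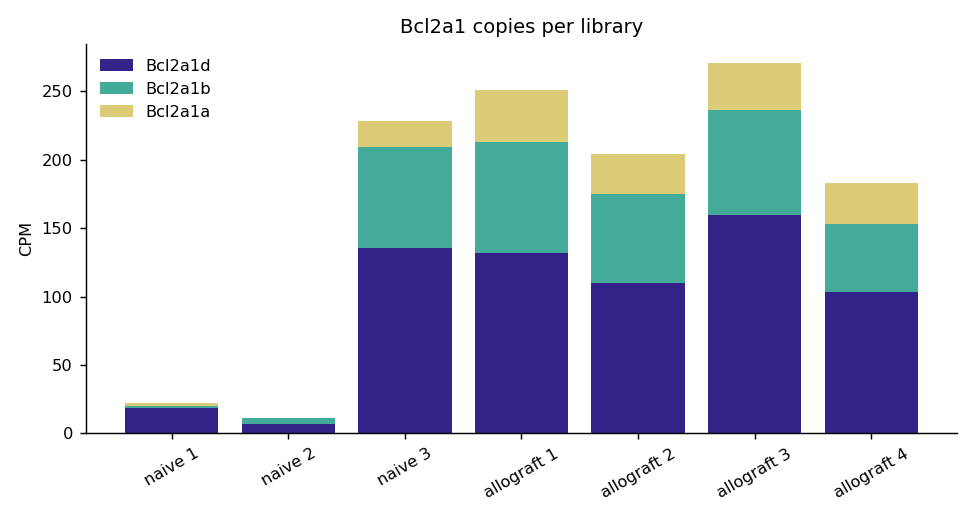
Stacked CPM of Bcl2a1d, Bcl2a1b and Bcl2a1a in each of the 7 libraries; Bcl2a1c, at most 0.613 CPM, is not drawn. The bars of naive replicates 1 and 2 are short, and that of naive replicate 3 is as tall as those of the allografts.

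The share of each copy in the summed A1 counts was compared between the allografts and naive replicate 3, the libraries with many A1 counts. Bcl2a1d took 52.4% to 58.8% of the sum in the allografts and 59.3% in naive replicate 3, and Bcl2a1b took 26.96% to 32.4% and 32.5%. Bcl2a1a, which is not among the 10 genes, took 12.8% to 16.5% in the allografts and a lower 8.09% in naive replicate 3. Its levels were 2.62, 0 and 18.5 CPM across naive replicates 1, 2 and 3 and 29.5 to 37.7 CPM in the allografts (log2 fold change 2.18, SE 1.59, adjusted p = 0.750). Every allograft thus lay above every naive library, as for 12.5% of all genes. Naive replicate 1 departed from this division, with 84.3% Bcl2a1d and 3.97% Bcl2a1b out of 1184 counts. The 504 A1 counts of naive replicate 2 held no Bcl2a1a.

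The sequences just upstream of the copies are also nearly identical, and they are shown because the copies varied together across libraries (r of log2 CPM plus 1 between 0.881 and 0.982 over the 7 libraries, a description only, in which shared reads cannot be told apart from shared expression). Each stretch runs 5′ to 3′ and ends just before the gene start in GENCODE M21, which lies upstream of the RefSeq start. The bases are those of the RefSeq promoter windows (GRCm38.p6). Capitals mark the letters AGGAAGTG, which hold the GGAA core of ETS factor sites and were picked after the sequences had been read. Bcl2a1a is at chr9:88956670-88956899 (+), Bcl2a1b at chr9:89199023-89199208 (+) and Bcl2a1d at chr9:88731915-88732100 (-):
Bcl2a1a: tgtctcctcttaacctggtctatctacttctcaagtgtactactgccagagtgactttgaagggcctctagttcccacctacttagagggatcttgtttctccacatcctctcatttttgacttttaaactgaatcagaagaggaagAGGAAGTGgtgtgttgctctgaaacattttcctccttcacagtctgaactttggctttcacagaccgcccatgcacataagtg
Bcl2a1b: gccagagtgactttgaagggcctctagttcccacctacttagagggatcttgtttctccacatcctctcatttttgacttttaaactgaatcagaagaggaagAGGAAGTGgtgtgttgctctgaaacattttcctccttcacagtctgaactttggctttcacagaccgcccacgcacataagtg
Bcl2a1d: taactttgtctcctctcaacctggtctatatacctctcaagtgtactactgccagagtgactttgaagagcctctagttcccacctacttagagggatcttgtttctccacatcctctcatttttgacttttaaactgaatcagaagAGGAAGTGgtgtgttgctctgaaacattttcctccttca

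In the aligned part these stretches were 94.6% to 99.5% identical. On either strand of the 250 bases before a RefSeq start, AGGAAGTG occurred in 3.14% of 32851 promoters and in those of Bcl2a1a, Bcl2a1b, Bcl2a1c and Bcl2a1d alone among the 11 of 12 family genes with a promoter in the table. TTCNNNGAA, the letters of STAT sites, occurred in 7.02% of promoters and in none of these genes. A loose form of the NF-kappaB site (3 G, any 5 bases, 2 C) occurred in 45.8% of promoters. It was found for Bcl2, Bcl2l1, Mcl1, Bcl2l11, Bax, Bak1, Bbc3 and Bcl2a1c, and not in this window of Bcl2a1a, Bcl2a1b or Bcl2a1d. Matches are letters and not measured binding. AGGAAGTG was picked from the printed, nearly identical copies, so its presence in them was fixed in advance and is no measure of enrichment.

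Bax (ENSMUSG00000003873, chromosome 7, 45461697 to 45466898), one of the pair of proteins that open the mitochondrial outer membrane, was among the most abundant members. Its levels were 176, 45.1 and 46.5 CPM across naive replicates 1, 2 and 3, and 246, 243, 153 and 199 CPM across allograft replicates 1 to 4. Only naive replicate 1 reached into the allograft range. It averaged 89.1 ± 75.1 CPM for naive (SD, n = 3) against 210.2 ± 43.6 CPM for allograft libraries (SD, n = 4). Bax had a log2 fold change of 1.12 (SE 0.49, 95% interval -0.03 to 2.27, unadjusted p = 0.0553, adjusted p = 0.510). Leaving out naive replicate 1 gave 1.88 (SE 0.36, adjusted p = 0.0876), leaving out replicate 2 gave 0.89 and leaving out replicate 3 gave 0.81. Gm45808, which shares 192 exonic bases with Bax, had at most 2 counts in a library.

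Bak1 (ENSMUSG00000057789, chromosome 17, 27019810 to 27029009), the partner effector, was scarce. Naive replicates 1 to 3 had 1.96, 0.813 and 0 CPM (104, 37 and 0 counts), and allograft replicates 1 to 4 had 3.95, 3.98, 4.85 and 7.80 CPM. Every allograft lay above every naive library, with means of 0.925 ± 0.985 CPM for naive (SD, n = 3) against 5.14 ± 1.82 CPM for allograft libraries (SD, n = 4). Bak1 had a log2 fold change of 2.29 (SE 1.63, 95% interval -1.50 to 6.08, adjusted p = 0.740). Leaving out naive replicates 1, 2 and 3 in turn gave 3.11, 2.37 and 1.71. The 0 counts in naive replicate 3 allow up to 0.0688 CPM, by counting error only. The same library had the fewest genes detected (13864) and the lowest quality weight (0.186), whose part in this was not tested. Exons of Bak1 overlap those of Ggnbp1 on the opposite strand over 614 bases, and the use of strand in counting is not given in the sources used here. Ggnbp1 had up to 795 counts in a library, so reads of the pair may be mixed.

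Of the BH3-only genes, Pmaip1 (ENSMUSG00000024521, chromosome 18), a p53 and stress response gene whose product NOXA opposes MCL1 and A1, had the smallest p of the 10. It had 22.1, 7.19 and 14.9 CPM across naive replicates 1, 2 and 3. Allograft replicates 1 to 3 had 65.4, 45.6 and 63.0 CPM, while allograft replicate 4 had 19.3 CPM, inside the naive range. Mean Pmaip1 was 14.7 ± 7.45 CPM for naive (SD, n = 3) against 48.3 ± 21.3 CPM for allograft libraries (SD, n = 4). The log2 fold change was 1.59 (SE 0.54, 95% interval 0.34 to 2.84, unadjusted p = 0.0195, adjusted p = 0.341). Leaving out naive replicate 2 gave 1.35 (unadjusted p = 0.0531), leaving out replicate 1 gave 1.89 and leaving out replicate 3 gave 1.57. The genes most like it in log2 CPM over the 7 libraries were Wdr18 (r = 0.987), Naa10 (0.964), Nmd3 (0.952), Tap2 (0.940) and Aup1 (0.931), again as a description.

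Bbc3 (ENSMUSG00000002083, chromosome 7, 16308393 to 16318205), which encodes the p53 target PUMA, was at or near 0 in the naive libraries with ILC2 genes. It had 0.528, 4.90 and 0 CPM across naive replicates 1, 2 and 3 (28, 223 and 0 counts), and 10.2, 18.9, 7.07 and 12.7 CPM across allograft replicates 1 to 4. The groups did not overlap, and the highest naive value was that of replicate 2, where 20254 genes were detected, against 15820 and 13864 in naive replicates 1 and 3. Mean Bbc3 was 1.81 ± 2.69 CPM for naive (SD, n = 3) against 12.2 ± 4.995 CPM for allograft libraries (SD, n = 4). For Bbc3 the log2 fold change was 2.22 (SE 1.76, 95% interval -1.88 to 6.32, adjusted p = 0.767). Without naive replicate 2 it was 5.48 (SE 1.81, 95% interval 1.13 to 9.83, unadjusted p = 0.0211, adjusted p = 0.170). Leaving out replicate 1 gave 1.76 and leaving out replicate 3 gave 1.66.

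Bcl2l11 (ENSMUSG00000027381, chromosome 2, 128126038 to 128162547), whose product BIM removes lymphocytes deprived of cytokine, varied widely among the naive libraries. It had 0.584, 4.35 and 45.1 CPM across naive replicates 1, 2 and 3 (31, 198 and 1964 counts), and 22.2, 25.3, 34.2 and 21.6 CPM across allograft replicates 1 to 4. Naive replicate 3 lay above and the other naive libraries below all allografts. The mean was 16.7 ± 24.7 CPM for naive (SD, n = 3) against 25.8 ± 5.79 CPM for allograft libraries (SD, n = 4). For Bcl2l11 the log2 fold change was 0.51 (SE 1.15, 95% interval -2.16 to 3.19, adjusted p = 0.945). Leaving out naive replicate 1 gave -0.053, leaving out replicate 2 gave 0.10 and leaving out replicate 3 gave 2.89 (adjusted p = 0.234).

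Levels of different genes were compared per length, as FPKM (fragments scaled by transcript length and library size). In the 4 allografts the same 4 genes led. Bcl2a1d had 104 to 160.4 FPKM, Bax 84.7 to 135 FPKM, Bcl2a1b 52.3 to 85.7 FPKM and Mcl1 48.0 to 57.7 FPKM. Bcl2, Pmaip1 and Bcl2l1 followed, with 14.9 to 29.5, 6.09 to 20.6 and 10.2 to 14.5 FPKM. The lowest were Bbc3 (2.89 to 7.67 FPKM), Bcl2l11 (2.32 to 3.68 FPKM) and Bak1 (1.41 to 2.80 FPKM). Neighbours in this order overlapped, except at the steps from Mcl1 to Bcl2 and from Bcl2l1 to Bbc3. In naive libraries the order differed. Bax led in naive replicate 1 (98.0 FPKM), where Mcl1 was second (51.3 FPKM) and Bcl2a1b had 0.941 FPKM. In naive replicate 3 Bcl2a1d led (139 FPKM), ahead of Mcl1 (106 FPKM) and Bcl2a1b (80.1 FPKM), and Bax had 26.1 FPKM.

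By role, the 5 antiapoptotic members summed to 88.5, 53.4 and 359.9 FPKM across naive replicates 1, 2 and 3, and to 294, 273, 327 and 248 FPKM across allograft replicates 1 to 4. Bax and Bak1 summed to 98.7, 26.6 and 26.1 FPKM in naive and 136, 135, 86.4 and 113 FPKM in allograft libraries. The 3 BH3-only members summed to 7.34, 5.003 and 9.76 FPKM in naive and 27.03, 24.8, 26.6 and 13.6 FPKM in allograft libraries, the only one of the 3 role sums in which the groups did not overlap. No share over all genes was computed for such a sum. Pmaip1 made up 7.07 FPKM of it in naive replicate 1 and 6.09 FPKM in allograft replicate 4, and so overlapped by itself. The separation was seen in FPKM and not in CPM. Bcl2l11, Pmaip1 and Bbc3 had 45.1, 14.9 and 0 CPM in naive replicate 3. They had 21.6, 19.3 and 12.7 CPM in allograft replicate 4, a lower sum than in that naive library. Bid, Bad, Bik and Bmf, BH3-only genes outside this sum, each overlapped between the groups in CPM. The part of the fewer genes detected in naive replicates 1 and 3 in this separation was not tested. Antiapoptotic over proapoptotic FPKM was 0.834, 1.69 and 10.03 across naive replicates 1, 2 and 3, and 1.80, 1.71, 2.89 and 1.96 across allograft replicates 1 to 4. Naive replicates 1 and 3 thus lay on either side of all allografts. Within the antiapoptotic sum Mcl1 made up 58.0%, 45.4% and 29.5% in the naive libraries and 15.7% to 23.3% in the allografts. These sums and ratios are descriptions, with no test.

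**Figure D4:**
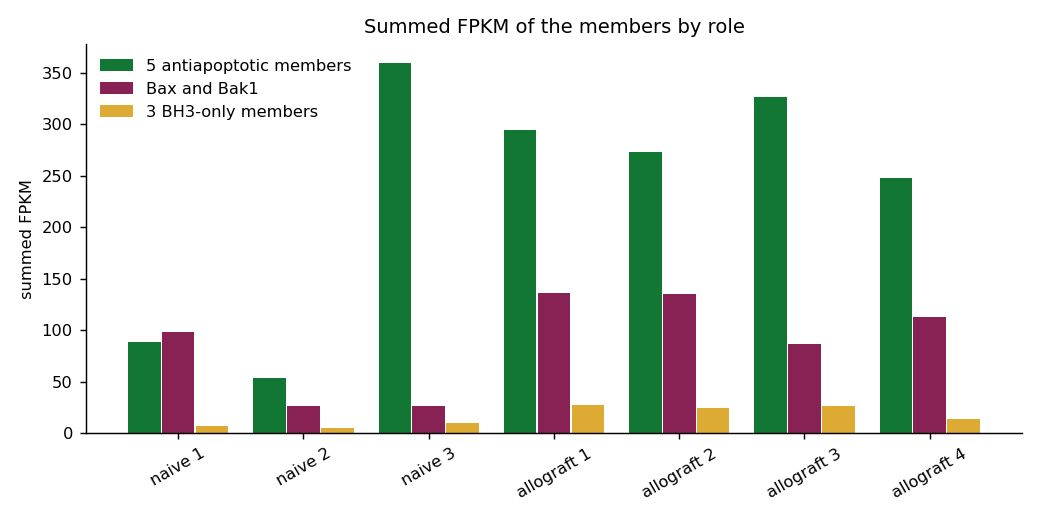
Summed FPKM per library of the 5 antiapoptotic members, of Bax with Bak1, and of the 3 BH3-only members. Antiapoptotic transcripts exceed effector transcripts in every library but naive replicate 1 (88.5 against 98.7 FPKM), and the BH3-only sum is at most 9.76 FPKM in naive and at least 13.6 FPKM in allograft libraries. In CPM the BH3-only sums of the groups overlap, and no share over all genes was computed.

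The ratio of an antiapoptotic gene to the BH3-only gene that its product binds also differed between libraries. Mcl1 over Pmaip1 FPKM was 7.26, 10.1 and 22.2 across naive replicates 1, 2 and 3, and 2.34, 3.59, 2.57 and 9.48 across allograft replicates 1 to 4, where replicate 4 lay inside the naive range. Bcl2 over Bcl2l11 FPKM was 219 in naive replicate 1, 3.70 in replicate 2 and 6.76 in replicate 3, and 6.28 to 10.9 in the allografts. Bcl2 over Bcl2l1 FPKM was 4.07, 0.119 and 27.1 in the naive libraries and 1.03 to 2.28 in the allografts, below naive replicates 1 and 3 and above naive replicate 2.

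**Figure D5:**
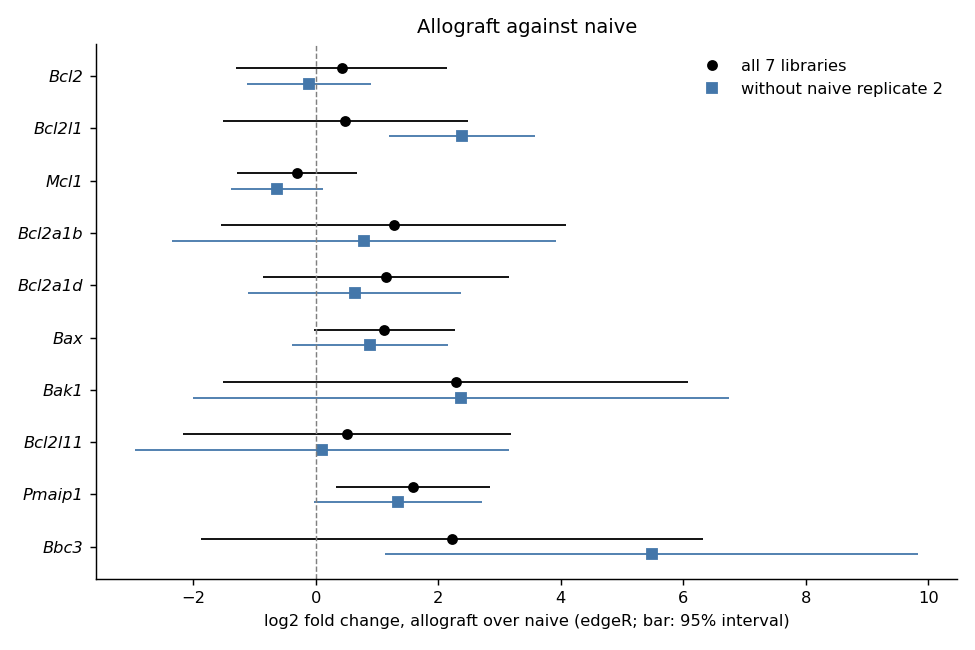
Fitted log2 fold changes (allograft over naive, edgeR) of the 10 members with 95% intervals, for all 7 libraries (black circles) and without naive replicate 2 (blue squares). The interval excludes 0 only for Pmaip1 with all libraries, and only for Bcl2l1 and Bbc3 without naive replicate 2, before adjustment over all genes.

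The other genes of the family and its surroundings were read from 8 lists with 77 genes in all, of which 70 were tested. None passed an adjusted p of 0.05 in edgeR, and 3 higher and 2 lower genes had an unadjusted p under 0.05, which is 7.14% of them against 10.3% of all genes. DESeq2 gave 4 of 71 an adjusted p under 0.05 (Stat5a, Trp53inp1, Aifm1 and Bcl2l2), where it called 6.51% of all genes. List genes were named for the smallest p in their list, a choice that favours groups without overlap. Of all genes 12.5% lay in every allograft above every naive library and 2.15% below. Of the other antiapoptotic genes 2 of 4 were tested. Bcl2l2, which encodes BCL-W, had 4.92, 19.6 and 34.7 CPM in naive and 2.10 to 5.53 CPM in allograft libraries, which overlapped at naive replicate 1. Its log2 fold change was -2.48 (SE 0.81, unadjusted p = 0.0166, adjusted p = 0.341), and -2.31 without naive replicate 2. DESeq2 gave it an adjusted p of 0.0184. Of 6 other BH3-only and effector genes 4 were tested, and their median log2 fold change was 0.055. Bmf, a BH3-only gene, had 0, 1.45 and 0 CPM in naive and 1.34 to 2.87 CPM in allograft libraries (log2 fold change 1.55, SE 2.08, adjusted p = 0.888). Without naive replicate 2 the naive libraries had 0 counts of Bmf, the allograft mean was at least 30.8-fold higher against a floor of 3 counts per library, and the adjusted p was 0.0437, 1 of the 560 genes that passed there. Bid had 0 to 35.4 CPM in naive and 5.94 to 15.8 CPM in allograft libraries, and Bik 2.73 to 26.6 and 8.54 to 12.7 CPM. Among 5 tested BCL2-related genes Bnip3 had 0, 239 and 28.9 CPM in naive and 0 to 10.5 CPM in allograft libraries. Bcl2l12 and Bnip3l overlapped between the groups, with log2 fold changes of -0.81 and -0.42.

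Downstream of the family, all 18 genes of the apoptosome, the caspases and their inhibitors were tested, and their median log2 fold change was 0.025. Aifm1, which encodes a mitochondrial flavoprotein needed for respiration and released in cell death, had 59.1, 101 and 23.9 CPM in naive and 18.1 to 20.8 CPM in allograft libraries. Every allograft lay below every naive library, as for 2.15% of all genes. Its log2 fold change was -2.01 (SE 0.57, unadjusted p = 0.00897, adjusted p = 0.266), and -1.13 (adjusted p = 0.220) without naive replicate 2. DESeq2 gave an adjusted p of 0.0323. Cycs (cytochrome c) had 968, 2007 and 361 CPM in naive and 598 to 777 CPM in allograft libraries. Its log2 fold change of -1.11 (adjusted p = 0.668) was -0.022 without naive replicate 2.

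Of the p53 list 11 of 12 genes were tested, with a median log2 fold change of -0.33. Trp53inp1, a p53 target that takes part in autophagy and cell death, had 40.9, 24.6 and 36.3 CPM in naive and 58.2 to 143 CPM in allograft libraries, without overlap. Its log2 fold change was 1.49 (SE 0.37, unadjusted p = 0.00449, adjusted p = 0.186), and 1.43 without naive replicate 2. DESeq2 gave an adjusted p of 0.0246. Trp53 itself had 18.3 to 63.1 CPM in naive and 53.8 to 72.4 CPM in allograft libraries (log2 fold change 0.61, adjusted p = 0.678), and Ccng1 55.7 to 96.7 and 53.8 to 71.1 CPM (log2 fold change -0.44, adjusted p = 0.739).

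Upstream, 13 cytokine receptor and signalling genes had a median log2 fold change of 0.56, which was 0.0080 without naive replicate 2. Stat5a, a carrier of interleukin 7 and interleukin 2 signals to Bcl2 and Mcl1, had 22.0, 7.72 and 18.6 CPM in naive and 36.5, 76.4, 67.3 and 63.8 CPM in allograft libraries. The groups did not overlap, and the log2 fold change was 1.79 (SE 0.42, unadjusted p = 0.00310, adjusted p = 0.161), or 1.54 (adjusted p = 0.0894) without naive replicate 2. DESeq2 gave an adjusted p of 0.00124. Stat5b (log2 fold change 0.73, adjusted p = 0.779) and Stat3 (log2 fold change 0.61, adjusted p = 0.771) overlapped between the groups.

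Of 12 transcription factors that act on family genes, Nfkb2 (p100/p52) had 47.2, 17.0 and 119 CPM in naive and 168 to 225 CPM in allograft libraries, without overlap (log2 fold change 1.60, SE 0.55, unadjusted p = 0.0210, adjusted p = 0.341). Rela (log2 fold change 0.92, adjusted p = 0.547) had 17.96 to 60.8 CPM in naive and 64.4 to 90.9 CPM in allograft libraries. Foxo1 (log2 fold change 0.89, adjusted p = 0.558) overlapped between the groups. The median of this list was 0.25, and -0.20 without naive replicate 2. Of 6 genes of MCL1 turnover 5 were tested, and the log2 fold changes of Fbxw7 (-0.46), Usp9x (0.18) and Gsk3b (-0.13) had adjusted p of 0.888 to 0.954.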

How the data were processed

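The authors deposited whole-number counts per Ensembl gene and FPKM for the same genes, 1 column per library. Per the submitters' processing notes, STAR 2.5.3a, StringTie 1.3.1c, DESeq2 1.16.1, FastQC 0.11.5 and mm10 were used, without stated roles. Per the labels' protocols, the cDNA was full-length and made with a single-cell kit, and no molecular identifiers are mentioned, so floors (3 counts, 0.0566 to 0.103 CPM) and intervals cover counting error only. The deposited counts were tested with edgeR 4.0.16 in R 4.3.3 (quasi-likelihood, TMM, filterByExpr, Benjamini-Hochberg at 0.05), 3 naive against 4 allograft libraries with no covariate. TMM factors were 0.724 for naive replicate 2 and 1.02 to 1.07 for the others, and CPM were computed without them. The standard error is that implied by F. Deposited FPKM gave levels per length and, as log2(FPKM + 1) or log2(FPKM + 0.1), limma 3.58.1 alternatives. Others were DESeq2 1.42.0, its size factors, voom with quality weights, filters, no mitochondrial genes, a replicate block and leaving out each library. The fits were tested on simulated data with the same dispersion for every gene and library and no deviating library. The naive libraries here differ from that setting, so the test does not show how the fits handle them. No library pair agreed within sampling noise (chi-square per degree of freedom at least 47.1). The members and lists were chosen with earlier results of these data known. Named were all members, up to 3 genes per list with the smallest p (1 is not reported here), and for Bcl2 and the member with the smallest p the 5 genes with the highest correlation among those with average log2 CPM of at least 5. Promoters came from RefSeq (GRCm38.p6), transcripts and coordinates from GENCODE M21.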

Additional observations from a re-analysis of the deposited data

Results flagged for a closer look

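Among 4 allograft libraries, single libraries far from the other 3 were looked for in 54 values, of which chance flags about 1 in 20. The neutrophil marker sum stood at 125 CPM for allograft replicate 1, against 77.5 to 83.6 CPM for the other grafts. The ratio of antiapoptotic to effector FPKM was 3.78 in allograft replicate 3 and 2.02 to 2.20 in the others, where that library had the lowest Bax (153 CPM) and the highest Bcl2a1d (159 CPM) of the grafts.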

How the results depend on the processing

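No member passed an adjusted p of 0.05 under any of the 17 alternatives, and DESeq2 gave no p for Bcl2l1, Bcl2a1b and Bcl2a1d. At an unadjusted p under 0.05 the number of members was 4 with voom (5.04% of all genes), where Pmaip1 was not among them. It was 6 with log2(FPKM + 1) and log2(FPKM + 0.1) (13% and 13.5%) and 5 with log2(FPKM + 1) unfiltered (8.62%). With naive replicate 3 removed it was 4 (16.7%), and with naive replicate 1 removed 2 (17.6%). Voom, log2(FPKM + 1) and log2(FPKM + 0.1) also moved all genes upward, to median log2 fold changes of 0.66, 0.21 and 0.52. The members then had medians of 1.90, 1.36 and 1.74. With log2(FPKM + 1), 1861 of the 2208 genes with an unadjusted p under 0.05 were higher in allografts. The 6 genes that passed in all became 1227 with DESeq2, 1 with voom, 76 and 201 with log2(FPKM + 1) and log2(FPKM + 0.1), 28 with log2(FPKM + 1) unfiltered and 0 with the replicate block (252 at an unadjusted p under 0.05). Leaving out 1 library gave 0 to 560, namely 107 with naive replicate 1 removed, 560 with naive replicate 2 removed and 0 with any of the 4 allografts removed (848 to 1074 at an unadjusted p under 0.05). Deviations of same-numbered libraries from their group means correlated at r 0.017, -0.020 and 0.036. The naive libraries differed so widely from each other that these values cannot decide whether a number links libraries. The titles do not say that it does, and the numbers were not read as pairs. With the replicate block the summed Bcl2a1 copies had a log2 fold change of 2.55 (adjusted p = 1). No gene passed with the block and no member without it, so no call of a member could change. DESeq2 size factors moved the median log2 fold change of all genes from -0.014 to -0.20 and turned no member. When 1 library was left out, the log2 fold change turned in at least 1 case for Bcl2 (-0.11 to 1.49), Bcl2l1 (-0.0050 to 2.39), Mcl1 (-0.63 to 0.32), Bcl2l11 (-0.053 to 2.89), Bik (-0.71 to 0.91), Bcl2l12 (-1.17 to 0.093) and Gsk3b (-0.27 to 0.14). It also turned for Mcl1 with log2(FPKM + 1), filtered or not (0.027), and log2(FPKM + 0.1) (0.032). The same FPKM settings gave Bik 0.27 and 0.42 and Gsk3b 0.027 and 0.037, and the second gave Bid 0.47. Voom turned Bid (0.39) and Bnip3 (1.85), the replicate block Bid (0.038), Bik (0.22) and Usp9x (-0.056), and DESeq2 size factors and DESeq2 turned Usp9x (-0.037 and -0.042). The cause was not tested. Bak1 and Bbc3 had 0 to 104 and 0 to 223 counts in the naive libraries. Total counts were 43591167 to 53044907 in naive and 29107326 to 44023726 in allograft libraries. Genes detected were 15820, 20254 and 13864 in naive replicates 1, 2 and 3 and 19235 to 21354 in the allografts. The part of either in these low counts was not tested.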

Other observations

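Chosen after the values were seen, 2 members were set against Ptprc (CD45), which all sorted cells should carry. Ptprc had 239, 11.7 and 565 CPM across naive replicates 1, 2 and 3, against 394 to 739 CPM in the allografts. Mcl1 over Ptprc in CPM was 0.839, 7.72 and 0.728 in the naive libraries and 0.277 to 0.517 in the allografts, below every naive library. Bcl2 over Ptprc was 0.606, 1.56 and 0.616 in the naive libraries and 0.403 to 0.546 in the allografts, again without overlap. In CPM alone neither Mcl1 nor Bcl2 separated the groups, so the separation came with the division by Ptprc. Bcl2 over Gata3 and Mcl1 over Rora, by contrast, overlapped between the groups. Bcl2 and Gata3 had 145 and 654 CPM in naive replicate 1, 159 and 756 CPM in allograft replicate 1, and 313 and 768 CPM in allograft replicate 2. Mcl1 and Rora had 412 and 2993 CPM in naive replicate 3, 191 and 1266 CPM in allograft replicate 1, and 205 and 1638 CPM in allograft replicate 2. The share of all genes that would separate when divided by Ptprc was not computed. In naive replicate 2 both ratios were the highest of the 7 libraries, although its Mcl1 and Bcl2 levels per total count were the lowest. No test was made.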
